A study of Oncorhynchus mykiss with 12 samples.

Results

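Transcript levels in the head kidney of rainbow trout (Oncorhynchus mykiss) fed propylthiouracil (PTU) were set against those of control trout. The comparison took all 8 arrays that the labels give as PTU or control, of 12 arrays in the study. 4 arrays held head kidney RNA of fish that ate feed with 5000 µg of PTU per g over 7 days, and 4 held RNA of control fish whose labels give no agent. The other 4 arrays, of fish fed triiodothyronine (T3) in feed with 20 µg per g, are in neither group; they shared the estimate of the spread and the filter on dim probes, and they are given as a second yardstick where named. Each array read 1 pool of 2 fish, and all were juveniles of 50 g kept at 15 °C. Each array carried 12884 trout probes, chosen for immune-related genes per the series design, and 536 control spots.

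Thyroid hormone is made in the thyroid follicles by thyroid peroxidase, which couples iodine to thyroglobulin. PTU blocks that enzyme and is used to lower thyroid hormone in fish and mammals. Thyroid hormone acts mainly through nuclear receptors that raise or lower transcription of their target genes. In bony fish the head kidney forms blood cells and holds B cells and phagocytes, as bone marrow does in mammals, and it also holds the interrenal cells that make cortisol and the chromaffin cells that make catecholamines. A sample of it is a mixture of these cells, and in such bulk RNA fewer cells of a type and less RNA per cell cannot be told apart. The files pair no probe ID with a gene, so the tissue could not be checked against markers, and the probes are called by their IDs.

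Slide 2 held all PTU arrays, in scan 2, and slide 1 all control and T3 arrays, in scan 1. Feed and slide cannot be told apart in the values below. The labels name 6 aquaria but not which pool came from which, so the tests measure the spread between pools. Between 88.1% and 97.4% of the probes were well above background on the PTU arrays, and between 85.6% and 99.6% on the control arrays. The mean share was 91.8% ± 4.42 in PTU and 90.6% ± 6.43 in control pools (SD, n = 4 each), a difference within the spread (exact permutation test over arrays, two-sided, p = 0.771, 4 pools per group). PTU replicate 3 and control replicate 2 stood apart from the other arrays of their groups. Their dim probes were raised, and the width between the 10th and 90th percentile of log2 intensity was 6.73 on PTU replicate 3 and 7.05 on control replicate 2, against 8.49 to 9.82 on the other PTU arrays and 9.13 to 9.33 on the other control arrays. The mean share well above background was 2.26 percentage points higher in PTU without them and 1.15 points higher with all 8 arrays. Of the T3 arrays, replicate 1 was narrower still, with a width of 6.27. On it 99.0% of the probes were well above background and 232 spots were marked as outliers. T3 replicate 1 stayed in the fits without PTU replicate 3 and control replicate 2.

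A level below is a log2 intensity less the 75th percentile of its array, and a difference is the PTU mean minus the control mean of such levels. The tests took in the 11762 probes that the scanner software marked as well above background in 3 or more arrays of some group.

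Across all tested probes, with each array scaled to its own 75th percentile, the differences centred near 0. The median difference was 0.03 (-0.09 with arrays scaled to their medians), the middle 50% of the probes lay between -0.34 and 0.45, and 95% lay between -1.47 and 1.27. Differences larger than 2-fold were found for 681 probes higher and 692 lower in PTU, which together are 11.7% of those tested, and differences past 4-fold for 35 higher and 165 lower. The balance past 2-fold rested on single arrays and on the scaling. It was 634 higher and 1433 lower without PTU replicate 3, 1298 and 512 without control replicate 2, 872 and 939 without both, and 485 and 902 with arrays scaled to their medians. No probe passed an adjusted p of 0.05 in limma (0% of 11762), and the smallest adjusted p was 0.137. At an unadjusted p under 0.05 there were 1217 probes (10.3%), of which 600 were higher (5.1%) and 617 lower (5.25%) in PTU. The share of these that were higher was 49.3%, against 30.5% with arrays scaled to their medians and 60.9% with the percentile taken over probes detected on all arrays. All 4 PTU arrays lay above all 4 control arrays for 355 probes (3.02%) and below them for 354 (3.01%). The 95% interval of the difference excluded a 2-fold change in either direction for 22.3% of the probes and a 4-fold change for 71.6%, with a median standard error of 0.44.

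Without PTU replicate 3 and control replicate 2, the median difference was 0.0040 and 85.4% of the probes kept their sign. In that fit 3 probes passed the threshold (0.0255%) and 1258 had an unadjusted p under 0.05 (10.7%). With 3 arrays a side, the PTU arrays lay above the control arrays for 1102 probes (9.37%) and below them for 1166 (9.91%). Fewer arrays a side part fully more often by chance, so these shares are not comparable with those over all arrays. The 3 probes were all lower in PTU. JC007150 differed by -3.12 (limma adjusted p = 0.00972) and its partner JC000708 by -3.03 (adjusted p = 0.0109). The third, JC005530 (limma adjusted p = 0.0172), was well above background on no PTU array, so only a bound on its difference can be given. JC005530 passed the filter on dim probes only through the control arrays. Over all arrays the same probes had limma adjusted p-values of 0.137, 0.137 and 0.329. With the same arrays left out and quantile normalization, 0 probes passed, and the limma adjusted p-values were 0.082, 0.082 and 0.19. Both fits kept the T3 arrays, which also entered the quantile normalization.

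By signal level, the group medians lay close together. The tested probes were ranked by mean level over the 8 arrays and split into 5 bins of equal size, from bin 1, the dimmest, to bin 5, the brightest. In the dimmest bin, with mean levels of -7.68 to -4.41, the array medians were -6.16, -6.46, -3.94 and -5.39 in PTU replicates 1 to 4 and -5.78, -4.20, -6.01 and -5.85 in control replicates 1 to 4. PTU replicate 3 and control replicate 2 were the highest of their groups, and the groups overlapped. The difference of the means was -0.02 (exact permutation test over arrays, two-sided, p adjusted over the 5 bins = 0.971), and -0.12 without those arrays. In the brightest bin, with mean levels up to 8.28, the array medians were 2.35, 2.28, 2.07 and 2.24 in PTU and 2.40, 2.11, 2.31 and 2.34 in control pools. Here PTU replicate 3 and control replicate 2 were the lowest of their groups, and the difference was -0.06 with the 8 arrays and -0.06 without them (p adjusted over the bins = 0.857, exact permutation test). Bins 2, 3 and 4 differed by 0.10, 0.10 and 0.05, with adjusted p-values of 0.857, 0.857 and 0.714 in the same exact permutation test, and by 0.08, 0.10 and 0.05 without PTU replicate 3 and control replicate 2. With 4 arrays against 4, that test cannot go below 0.0286 before adjustment. Without PTU replicate 3 alone, the second-brightest bin differed by 0.06 and reached an unadjusted p of 0.0286, the smallest possible, in the exact permutation test. Of all bins with any 1 array left out, no other reached that p. Without PTU replicate 3 and control replicate 2 together, bins 3 and 4 each had an unadjusted p of 0.1 in the exact permutation test. That is the smallest possible with 3 arrays a side. The second-brightest bin, with mean levels of -1.27 to 0.75, holds the percentile to which each array was scaled. That limits how far its array medians can differ. Their SD was 0.046 in PTU and 0.034 in control pools, against 1.13 and 0.85 in the dimmest bin. With all arrays scaled to their medians, the second-brightest bin differed by -0.07.

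**Figure D1:**
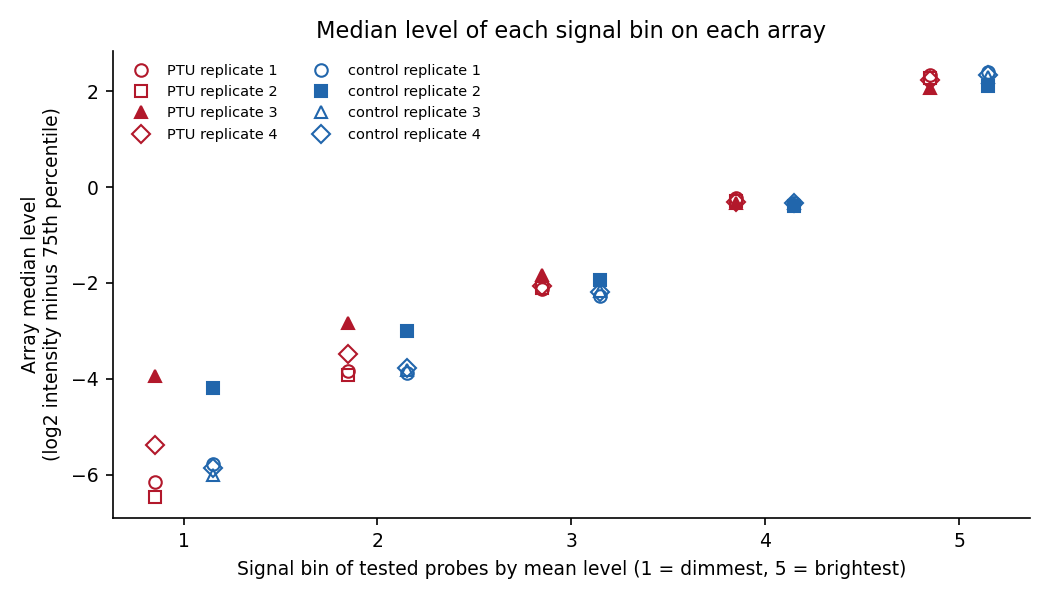
Median level of the tested probes on each array (log2 intensity less the array's 75th percentile), by signal bin from dim to bright, with PTU arrays in red at the left and control arrays in blue at the right of each pair. Filled points are PTU replicate 3 and control replicate 2, which are the highest of their groups in the dimmest bin (-3.94 and -4.20) and the lowest in the brightest (2.07 and 2.11).

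The probes whose arrays did not overlap were split unevenly by signal level. In the middle bin, all PTU arrays were above all control arrays for 147 probes (6.25%) and below them for 54 (2.30%), against 3.02% and 3.01% of all tested probes. In the brightest bin the counts were 35 above (1.49%) and 147 below (6.25%), and in the second-brightest 69 above and 113 below. The dimmest bin held 39 above and 10 below, and the second-dimmest 65 above and 30 below. The T3 arrays belong to neither group but shared slide 1 with the control arrays. With the bins set by them, the counts from dim to bright were 49, 82, 133, 59 and 32 above and 10, 16, 56, 124 and 148 below. Without PTU replicate 3 and control replicate 2 the counts in the brightest bin were 113 above and 330 below, in the middle bin 333 above and 181 below, and in the dimmest bin 186 above and 206 below. More probes thus lay below than above in the brightest bin with and without those arrays, while in the dimmest bin the side with more probes changed.

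The direction by signal level also moved with the scaling. Of the probes at an unadjusted p under 0.05 in the brightest bin, 31.0% were higher in PTU, and in the middle bin 60.8% were. After quantile normalization these shares were 48.7% and 34.4%, and after cyclic loess 47.1% and 45.9%. With levels relative to 5 spike-in probes they were 43.2% and 34.7%. Without control replicate 2 the share higher in PTU in the dimmest bin was 84.1%, and without PTU replicate 3 it was 13.9%, against 34.1% without both and 57.8% with all arrays. Without both arrays the share was 26.8% in the brightest bin and 57.3% in the middle bin.

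**Figure D2:**
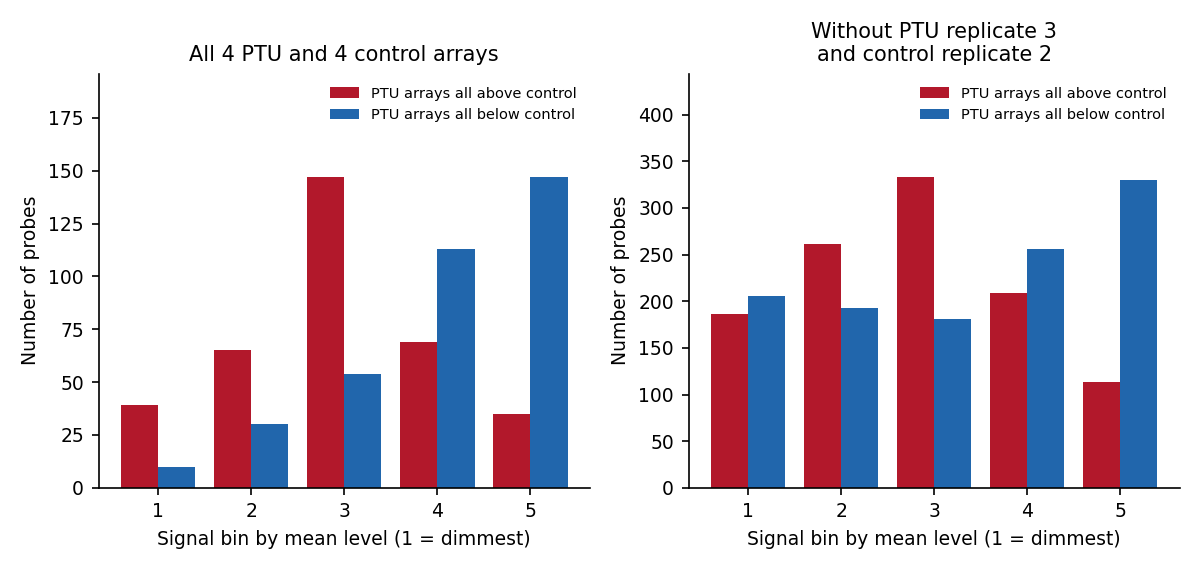
Number of tested probes whose PTU arrays all lay above, or all lay below, the control arrays, by signal bin, with all 8 arrays and without PTU replicate 3 and control replicate 2. In the brightest bin the bars stand at 35 above and 147 below with all arrays and at 113 above and 330 below without the 2. Fewer arrays part fully more often by chance, so bar heights are not comparable between the panels.

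The spread was wider among dim probes. The median standard error of a difference was 0.80 in the dimmest bin and 0.35 in the brightest, and the interval excluded a 2-fold change for 2.21% of the probes in the dimmest and 38.3% in the brightest. The median SD between pools in the dimmest bin was 1.28 in PTU and 1.00 in control pools, and 0.71 in PTU and 0.50 in control pools without PTU replicate 3 and control replicate 2. In the brightest bin it was 0.36 in PTU and 0.53 in control pools. Control replicates 1 and 4 were both above control replicates 2 and 3 for 48.2% of the brightest bin's probes. The most frequent such split of the PTU arrays, replicates 1 and 4 over the others, held for 24.4%.

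The probe IDs were found to come in pairs with nearly the same reading. IDs whose numbers lie 6442 apart had mean levels that correlated at r = 0.999 across 6442 pairs, with a median gap of 0.06, while shifting the numbers to 6441 or 6443 apart gave r = 0.157 and 0.158. This correlation is across probes of the same arrays, which are not independent replicates, and it was noticed after the values were seen. The PTU difference itself correlated at r = 0.967 over the 5815 pairs with both IDs tested, and 92.7% of these had the same sign in both. The 2 spots of a pair lay a median of 56 rows and 24 columns apart on a grid of 192 rows and 82 columns. The sources do not say whether the IDs of a pair carry the same sequence. Probes named below are given with their partners, but counts of probes are per ID unless pairs are named, so a pair can count 2 times.

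**Figure D3:**
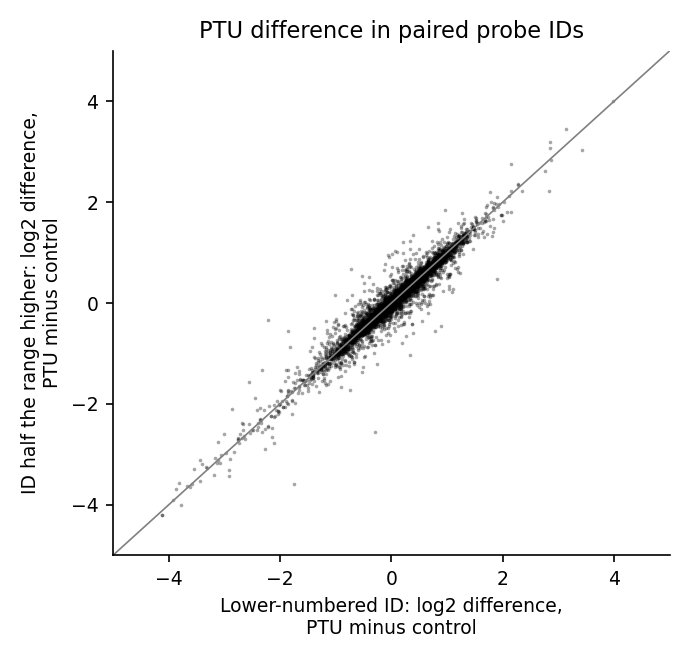
PTU minus control difference (log2) of each lower-numbered ID on the horizontal axis against that of the ID 6442 numbers higher on the vertical axis, for 5815 pairs, with the line of equal values in grey. The points follow the line, with r = 0.967 across pairs.

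The spread of a spot around its pair can be set beside the spread between pools. As the IDs of a pair are not known to share a sequence, it may hold more than spot error. For this the pairs were split into 5 bins of equal size by their mean level. The SD of a single spot around its pair, with a constant offset between the IDs removed, had a median of 0.23 in the dimmest bin and 0.055 in the brightest. With all 8 arrays, the SD between pools was 4.77 and 8.94 times as large (median over pairs). In the dimmest bin of pairs its median was 1.24 in PTU and 0.95 in control pools. Without PTU replicate 3 and control replicate 2 it was 0.68 in PTU and 0.45 in control pools. Deviations from each probe's median over the 8 arrays, in the dimmest bin, correlated between the spots of a pair at r = 0.959 on PTU replicate 3 and r = 0.957 on control replicate 2 (1160 and 1161 pairs), and at r = 0.719 to 0.901 on the other 6 arrays. The median deviation of a pair's mean was 1.63 on PTU replicate 3 and 1.34 on control replicate 2. Averaging each pair left 5815 features, of which limma called 0 (0%) and 621 had an unadjusted p under 0.05 (10.7%). Both IDs of 145 pairs lay above the control range, and both IDs of 138 pairs lay below it.

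The probes described one by one were those with the 6 smallest p-values in each direction, plus the largest non-overlapping difference of each bin in each direction. They were 22 IDs, in 18 pairs. 9 of the pairs were higher and 9 lower in PTU. None passed the adjusted threshold over all arrays. In what follows, values after normexp had normexp background correction and then quantile normalization. After normexp, the difference of 11 of the 22 was smaller by more than 1.5 times. They were picked by p or by size, so their sizes are a description. For the 6 of smallest p higher in PTU, the T3 mean minus the control mean ran from 0.30 (JC002877) to 1.52 (JC006583). For the 6 lower in PTU it ran from -0.50 (JC006216) to 0.33 (JC000579).

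Among the lower ones, JC000708 and its partner JC007150 had the smallest p. JC000708 stood at -4.75, -5.29, -3.23 and -4.90 in PTU and at -2.05, -1.83, -2.11 and -1.71 in control pools. JC007150 stood at -4.88, -5.40, -3.35 and -5.17 in PTU and at -2.04, -1.93, -2.12 and -1.92 in control pools. The PTU arrays were all below the control arrays on both spots, and PTU replicate 3 was the highest of the 4. JC000708 differed by -2.62 (SE 0.401) and JC007150 by -2.69 (SE 0.401), each with a limma adjusted p of 0.137. After normexp they differed by -1.60 and -1.61, each with a limma adjusted p of 0.00947. Both passed the threshold in 6 of 23 alternative settings of the processing, the fit or the arrays.

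JC009103 and its partner JC002661 came next. JC009103 had levels of -1.90, -2.52, -1.34 and -2.69 in PTU pools, against -0.27, 0.10, 0.78 and 0.70 in control pools. The groups did not overlap, and the gap between them was over 1 log2 unit. The difference was -2.44 (SE 0.374, limma adjusted p = 0.137), and it was -2.77 without PTU replicate 3 and control replicate 2. JC002661 differed by -2.22 (SE 0.354, limma adjusted p = 0.145). JC009103 passed the threshold in 5 and JC002661 in 3 of the 23 alternative settings.

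JC000579 stood at -2.44, -2.96, -2.03 and -2.48 in PTU and at -0.08, -1.23, -1.0 and -0.09 in control pools. Control replicates 1 and 4 were the highest, and the groups did not overlap. Its difference was -1.88 (SE 0.339, limma adjusted p = 0.272), and -2.23 without PTU replicate 3 and control replicate 2. JC006216 stood at -1.54, -1.98, -2.14 and -1.58 in PTU and at -0.65, 0.01, -0.26 and -0.55 in control pools. It had the smallest standard error among the named probes, with a difference of -1.45 (SE 0.263, limma adjusted p = 0.272), and -1.21 without those arrays.

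JC005530 was the dimmest of the named probes. It was well above background on 0 of 4 PTU arrays and on 3 of 4 control arrays, with levels of -9.38, -9.79, -6.65 and -9.14 in PTU and -5.79, -5.75, -6.56 and -6.65 in control pools. PTU replicate 3 lay far above the other PTU arrays and at the level of the lowest control array, so the groups barely parted. JC005530 and its partner JC011972 passed the filter on dim probes only through the control arrays. The control mean was set against the mean of the lowest signals well above background on the PTU arrays. This gave a bound of 1.81-fold brighter in control pools for JC005530 and 1.58-fold for JC011972. The control means include an array on which the probe was not well above background, so these are bounds on the means only. These bounds hold on the scale of the processed signal: the difference of JC005530 was -2.55 there (SE 0.584, limma adjusted p = 0.329) and -0.24 after normexp (limma adjusted p = 0.516), which is under the bound.

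Among the higher ones, JC006583 and its partner JC000141 had the largest difference of those with the smallest p. JC006583 stood at -4.40, -2.81, -2.30 and -3.04 in PTU and at -5.95, -5.49, -6.58 and -6.65 in control pools. The groups lay over 1 log2 unit apart. The difference was 3.03 (SE 0.579, limma adjusted p = 0.272), and 2.97 without PTU replicate 3 and control replicate 2. JC000141 stood at -4.52, -2.79, -2.40 and -2.99 in PTU and at -6.47, -5.64, -7.05 and -7.24 in control pools, and differed by 3.42 (SE 0.713, limma adjusted p = 0.274). JC006583 was well above background on 3 and JC000141 on 2 of the 4 control arrays, against all 4 PTU arrays. After normexp the differences were 1.19 for JC006583 and 1.16 for JC000141.

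JC002877 had the smallest p of the probes higher in PTU. Its levels were -3.11, -3.36, -2.49 and -3.58 in PTU and -4.61, -5.02, -4.75 and -4.42 in control pools. The control arrays spanned less than 1 log2 unit, and no PTU array reached them. The difference was 1.56 (SE 0.289, limma adjusted p = 0.272), 1.24 without PTU replicate 3 and control replicate 2, and 0.73 after normexp. Its partner JC009319 differed by 1.36 (SE 0.345, limma adjusted p = 0.346).

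JC003850 stood at -1.98, -2.79, -1.27 and -1.94 in PTU and at -4.10, -3.99, -3.51 and -3.66 in control pools. It differed by 1.82 (SE 0.358) and its partner JC010292 by 1.67 (SE 0.337), each with a limma adjusted p of 0.272. The differences were 1.52 and 1.41 without PTU replicate 3 and control replicate 2, and 1.09 and 1.11 after normexp. Both spots put every PTU array above every control array.

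JC002206 stood at -1.09, -0.47, -0.81 and -1.10 in PTU and at -3.46, -3.13, -2.49 and -1.67 in control pools. Control replicate 1 differed between the spots of this pair, at -3.46 on JC002206 and -2.18 on JC008648. JC002206 differed by 1.82 (SE 0.368, limma adjusted p = 0.272) and JC008648 by 1.41 (SE 0.303, limma adjusted p = 0.288). JC008741, of another pair, stood at -1.11, -0.57, -0.70 and -1.06 in PTU and at -2.09, -3.01, -2.38 and -1.83 in control pools, with a difference of 1.47 (SE 0.299, limma adjusted p = 0.272). JC002206 differed by 1.65 and JC008741 by 1.18 without PTU replicate 3 and control replicate 2. On all 3 of these IDs the PTU arrays were closer to each other than the control arrays were.

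In bins 4 and 5, the largest non-overlapping gains were those of JC005532 and JC000655. JC005532 stood at 0.74, 1.30, 0.52 and 0.79 in PTU and at -0.55, -1.43, -0.47 and -0.85 in control pools, a difference of 1.66 (SE 0.415, limma adjusted p = 0.346). JC000655 stood at 2.17, 0.85, 1.5 and 1.53 in PTU and at 0.32, -0.95, 0.17 and 0.48 in control pools, a difference of 1.51 (SE 0.364, limma adjusted p = 0.346). Control replicate 2 was the lowest array for both, and without it and PTU replicate 3 the differences were 1.57 and 1.19.

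**Figure D4:**
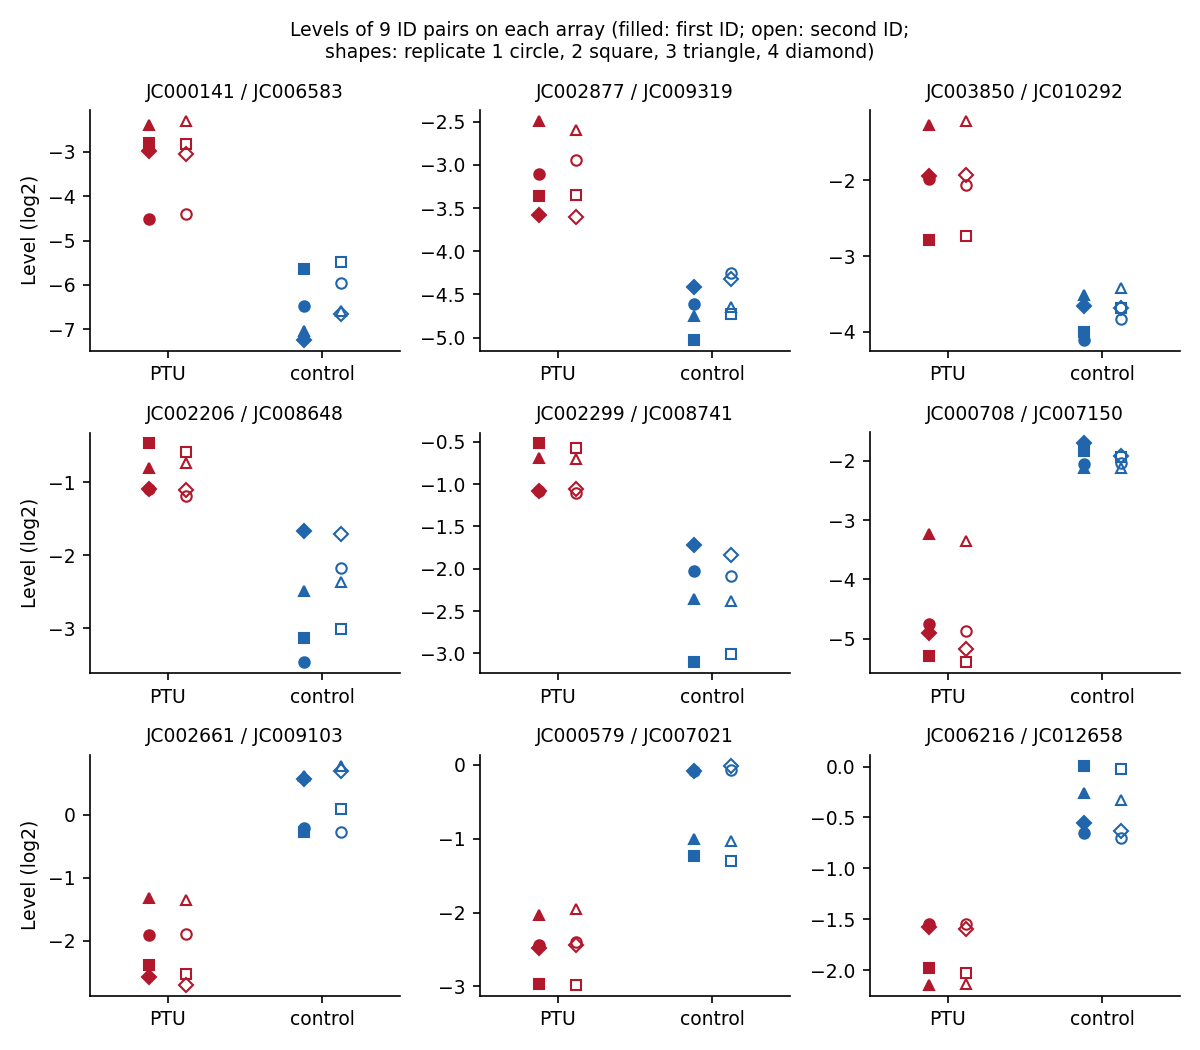
Level on each array (log2 intensity less the array's 75th percentile) of 9 pairs of IDs, PTU in red at the left and control in blue at the right, with filled points for the first ID, open points for its partner and a shape for each replicate. Filled and open points of an array lie close for most arrays, and control replicate 1 parts by over 1 log2 unit on JC002206 and JC008648; JC000708 lies between -5.29 and -3.23 in PTU and between -2.11 and -1.71 in control pools.

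Several of the largest differences came with a wide spread in every group. JC006650 stood at -6.78, -7.64, -5.23 and -3.36 in PTU and at -2.49, 0.10, -0.68 and -3.14 in control pools, a difference of -4.20 (SE 1.27, limma adjusted p = 0.386), and the SD of the 4 T3 arrays was 2.50. JC001652 stood at -3.70, -5.58, -1.86 and -1.75 in PTU and at -0.78, 2.65, 0.69 and -0.80 in control pools, with an SD of 3.05 among the T3 arrays and a difference of -3.66. JC000266 stood at -1.58, -3.34, -1.41 and -1.13 in PTU and at 0.52, 2.76, 2.22 and -0.26 in control pools, with an SD of 2.68 among the T3 arrays and a difference of -3.17. In all 3, PTU replicate 2 was the lowest PTU array and control replicate 2 the highest control array. The differences without PTU replicate 3 and control replicate 2 were -3.82 for JC006650, -3.38 for JC001652 and -2.84 for JC000266, and after normexp JC006650 differed by -2.21.

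JC012883 and JC006432 were the reverse case. JC012883 stood at -2.78, -1.30, 1.40 and -1.83 in PTU and at -3.30, -4.46, -3.77 and -5.27 in control pools, a difference of 3.07 (SE 0.955, limma adjusted p = 0.386). JC006432 stood at -3.25, -2.14, 0.53 and -2.55 in PTU and at -4.06, -4.74, -4.20 and -5.46 in control pools, a difference of 2.76 (SE 0.887, limma adjusted p = 0.386). PTU replicate 3 was the highest array for both, and without it and control replicate 2 the differences were 2.14 and 1.93. After normexp they were 2.05 and 1.7. JC004203 rested on 1 spot. It stood at 4.17, 4.25, -3.70 and 4.25 in PTU and at 4.66, 4.32, 4.47 and 4.39 in control pools, while its partner JC010645 read 3.92 on PTU replicate 3. JC004203 differed by -2.22 (SE 1.45, limma adjusted p = 0.609) and its partner by -0.34. JC004203 differed by -0.28 without PTU replicate 3 and control replicate 2.

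The spread was also wide among the probes lower by over 4-fold. The median SD of the 165 probes lower by over 4-fold was 1.62 among PTU, 1.75 among control and 2.27 among T3 arrays, against 0.57, 0.59 and 0.54 over all tested probes. For the 35 probes higher by over 4-fold it was 1.79 among PTU, 0.93 among control and 1.86 among T3 arrays. 19.4% of the 165 and 17.1% of the 35 had no overlap between PTU and control arrays, against 6.03% of all tested probes. These probes were picked by their size, so the shares are a description. Both IDs of 75 pairs were among the 165, and both IDs of 15 pairs among the 35. The median level of the 165 lower probes was -5.06, -6.19, -2.86 and -3.02 in PTU replicates 1 to 4. In control replicates 1 to 4 it was -1.89, -0.08, -0.63 and -2.79. PTU replicates 1 and 2 lay lowest, and PTU replicates 3 and 4 lay close to control replicate 4. The counts over and under 4-fold were 35 higher and 165 lower with all arrays, 118 and 106 without control replicate 2, 19 and 250 without PTU replicate 3, 81 and 93 without PTU replicate 2, and 78 and 181 without PTU replicate 3 and control replicate 2.

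The differences were not evenly spread over the ID numbers. IDs 801 to 1800 and their partners 7243 to 8242 held 1913 tested probes, 16.3% of the total, with a median difference of 0.45, and 72.6% of them were higher in PTU. The other tested probes had a median of -0.02, and 48.1% were higher. The run was the longest stretch of blocks of 100 numbers with medians all over 0.15. Raised medians in its blocks were thus set in advance. Its 10 blocks had medians between 0.21 and 0.56, while the other blocks ranged from -0.28 to 0.30. The run was picked after its values were seen and by these same differences, so no test is given and its shares are a description. It held 135 probes with all PTU arrays above all control arrays (7.06%) and 14 with all below (0.732%), against 220 (2.23%) and 340 (3.45%) among the other probes.

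The shift of the run was not shared by all PTU arrays. The run's median level was -2.04, -2.02, -2.34 and -2.61 in PTU replicates 1 to 4 and -3.00, -2.47, -2.61 and -2.49 in control replicates 1 to 4. PTU replicates 1 and 2 were the highest and control replicate 1 the lowest, while PTU replicate 4 lay within the control range, so the groups overlapped. From each probe's median over the PTU and control arrays, PTU replicates 1 to 4 deviated by 0.31, 0.50, 0.05 and -0.03 in the run. Outside the run they deviated by -0.11, -0.20, 0.26 and 0.05. PTU replicates 1 and 2 were thus higher in the run than outside it, and replicates 3 and 4 lower. Every control array was also lower in the run. The T3 arrays deviated by 0.13, 0.41, -0.11 and 0.39 in the run and by 0.27, -0.19, 0.02 and -0.04 outside it. Only T3 replicates 2 and 4 were higher in the run, so raised values were not confined to PTU. The run's median difference minus that of the other probes was 0.47 with all arrays, 0.27 without PTU replicate 2, 0.65 without PTU replicate 3 and 0.66 without PTU replicate 3 and control replicate 2. It was 0.37 after quantile normalization and 0.25 after normexp background correction followed by quantile normalization. The spots of the run were spread over the whole array, with 5th and 95th percentiles at rows 10 and 183, as for the other probes.

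**Figure D5:**
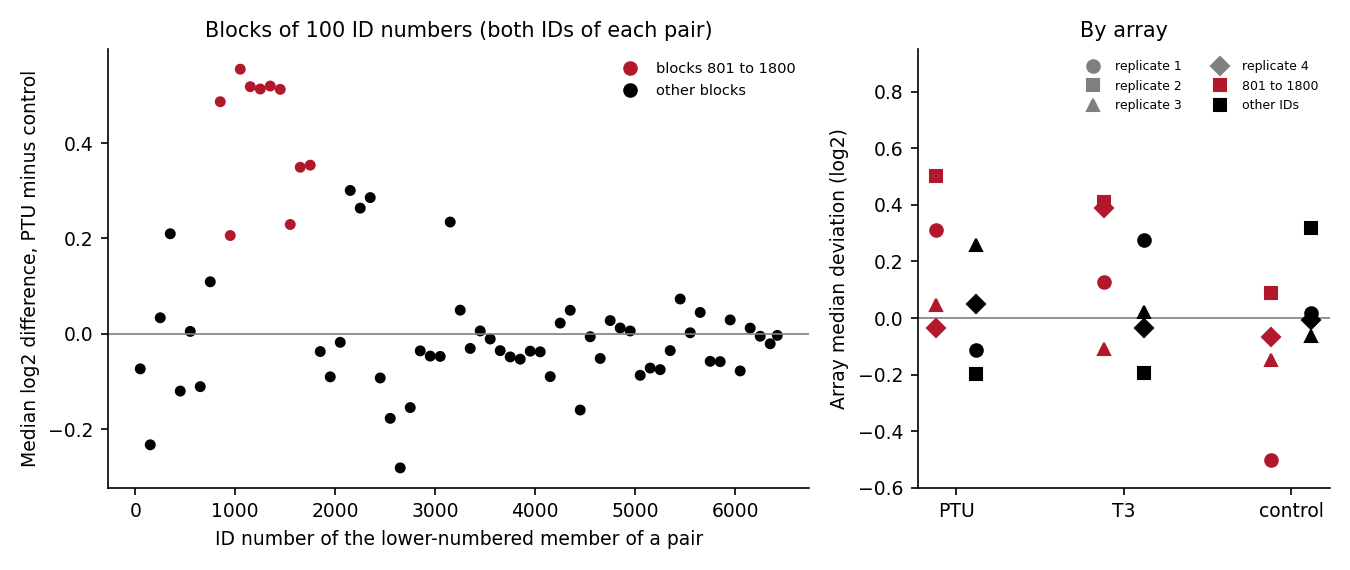
Left, median PTU minus control difference (log2) per block of 100 ID numbers, each block with its partner IDs, the run from 801 to 1800 marked. Right, median deviation on each array from each probe's median over the PTU and control arrays, for the run and for the other IDs, by group. PTU replicates 1 and 2 lie at 0.31 and 0.50 in the run and control replicate 1 at -0.50.

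The split by signal level was also uneven within and outside the run. In the middle bin, 80 of 552 probes in the run lay above and 2 below the control range, against 67 above and 52 below of 1800 outside it. In the brightest bin outside the run, 25 lay above and 147 below of 2107. 10 of 246 bright probes in the run lay above, and 0 below. As the run was chosen by these differences, its counts are a description.

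With all 8 arrays, no probe was detected on every array of one feed and none of the other. 10447 probes (81.1%) were well above background on all 8 arrays and 37 on none. 0 probes were well above background on all 4 PTU arrays and no control array, and 0 the other way round. 28 probes were so on all 4 PTU arrays and at most 1 control array, and 2 on at most 1 PTU array and all 4 control arrays. Without PTU replicate 3 and control replicate 2, whose dim probes were raised, 27 probes (0.210%) were well above background on all 3 PTU arrays and no control array, and 2 (0.0155%) on no PTU array and all 3 control arrays.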

How the data were processed

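Per the file headers, the arrays were a custom trout design read in 1 colour with Agilent Feature Extraction 10.7.3.1. Per the labels' protocols, Cy3-labelled cDNA was copied from total RNA with an oligo(dT) primer. The deposited processed signal is a background-corrected intensity, not scaled between arrays, and the median spot and background signals are also deposited as intensity. The deposited value table holds, by its values, a fraction, each probe's share of its array's summed signal, with no log and no centring. Its direction was taken from that match, and 0 columns belonged to other samples.

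Control spots and spots marked as outliers were left out. The 75th percentile of each array's log2 intensities was subtracted. The 3 groups of 4 arrays were fitted in 1 model by limma 3.58.1 (R 4.3.3), with two-sided moderated tests and Benjamini-Hochberg adjustment over 11762 probes at a threshold of 0.05. The number of arrays limits the precision. The fit was tested on simulated data. Array medians were compared by exact permutation tests over 70 splits.

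Named probes were the 6 with the smallest p in each direction and, per signal bin (5 bins of equal size, by mean level), the largest non-overlapping difference in each direction. 0 of 12884 IDs matched a table of 72772 trout genes, so the gene and marker lists were not analysed here. The comparison and lists were chosen with earlier results of these data known. Alternatives were other scalings, background correction by normexp (offset 50, on median signals) followed by quantile normalization, other filters, other fits and left-out arrays. Spike-in scaling and averaging of paired IDs were chosen after seeing the data.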

Additional observations from a re-analysis of the deposited data

Results flagged for a closer look

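4 values in 62 groups of 4 arrays lay far from the others of their group by Dixon's test, which chance does in about 1 of 20 groups. JC004203 read -3.70 on PTU replicate 3 and between 4.17 and 4.25 on the other PTU arrays, on a spot with no outlier mark. The 3 others were all on control replicate 2. Its log2 intensities spanned 7.05 between the 10th and 90th percentile, against 9.13 to 9.33 on the other control arrays. Its median level was -4.20 in the dimmest bin, against -6.01 to -5.78 on the other control arrays, and -3.00 in the second-dimmest bin, against -3.89 to -3.78. Of the 60 control probes of the array design, 0 were brighter on all PTU arrays than on all control arrays, against 3.02% of the tested trout probes. At that share, 60 probes are too few for the count to be read either way. The count in the other direction is not given.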

How the results depend on the processing

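The 0 calls over all arrays became 7 after quantile normalization, 7 after cyclic loess, 4 after normexp, 5 with array quality weights and 3 without control replicate 2 and PTU replicate 3. With paired IDs averaged, 1 was called without those arrays and 4 after quantile normalization. Leaving out 1 array at a time gave 0 to 4, the 4 without PTU replicate 3. The other alternatives called 0. Each probe called was lower in PTU, and the cause was not tested. Except where pairs were averaged, these counts are per ID, so partners count separately. The IDs called were JC000708 and JC007150, JC002661 and JC009103, JC003321 and JC009763, JC005140 and JC011582, which are partners, and JC005530. JC005530 was well above background on no PTU array and passed the filter only through the control arrays, so its direction carries no weight. The count at an unadjusted p under 0.05 ran from 811 (without PTU replicate 2) to 1619 with 1 array left out and was 351 with spike-in scaling. The share of these probes higher in PTU was 30.5% after median scaling, 60.9% with the percentile over probes detected on all arrays, and 41.3% to 61.7% with 1 array left out. The named probes kept their sign in 502 of 502 values. On all of them the PTU and control arrays did not overlap, so leaving out arrays at the same scaling could not change a sign. For those settings the outcome was set in advance.

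The group differences of the bin medians, bins numbered from dim to bright, changed sign as follows, and the cause was not tested. Median scaling gave -0.013, -0.013 and -0.066 in bins 2, 3 and 4. The percentile over detected probes gave 0.050 and 0.017 in bins 1 and 5, and spike-in scaling 0.045 and 0.012. Normexp gave 0.0099, -0.00051, -0.0073 and 0.0078 in bins 1, 2, 3 and 5. Bins set by the T3 arrays gave 0.0098 in the dimmest. With 1 array left out, the medians ran from -0.54 to 0.40, -0.12 to 0.31, 0.038 to 0.17, 0.028 to 0.063 and -0.11 to -0.0021 in bins 1 to 5, and the difference in the share well above background from -0.72 to 4.13 percentage points.

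With the replicate block, 0 probes were called and 1100 had an unadjusted p under 0.05. The deviations of same-numbered arrays correlated at r = 0.19, -0.37, -0.34 and -0.04, of which 1 of 4 was over 0.1. Of 8 arrays, 2 correlated best with their own number. The labels link these arrays only by the number, and whether they shared an aquarium or handling was not tested.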
